A study of Mus musculus with 10 samples.

Results

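The genes described here are 9 dual-specificity phosphatases of MAP kinases, Dusp1, Dusp2, Dusp4, Dusp5, Dusp6, Dusp8, Dusp10, Dusp14 and Dusp16, taken as all probe sets that the annotation of the array assigns to these symbols. They are 9 of the 18193 genes with a probe set of their own on the array and held 13 of its 45101 probe sets. Of the 13, 11 passed the filter on low signals, at least 1 for each gene. RNA of mouse hippocampus was measured on 10 oligonucleotide arrays (Affymetrix) in 5 groups of 2 arrays, each array carrying pooled RNA of 3 to 4 animals that were 3 weeks old. The groups were A-CREB mice given saline, A-CREB mice given 14 mg/kg kainate, A-CREB mice given 18 mg/kg kainate, wild-type mice given 14 mg/kg kainate and wild-type mice given saline. Kainate is a glutamate receptor agonist that provokes seizures. A-CREB is a dominant-negative inhibitor of CREB, the transcription factor that binds cAMP response elements, and the transgenic strain was labelled TetO-A-CREB-95 C57BL6 F1/J. The wild-type strain was labelled C57BL6 F1/J, with the strain left blank for 2 of the 4 wild-type arrays. The driver of the tetracycline-controlled transgene, the cells that carried it and the time between injection and dissection are unknown here, and no wild-type group received 18 mg/kg.

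MAP kinases (ERK, JNK and p38) are switched on by phosphorylation of a threonine and a tyrosine in their activation loop, and dual-specificity phosphatases switch them off by removing both phosphates. Several of these phosphatases are themselves transcribed in response to MAP kinase activity, which makes them a negative feedback, and in neurons some are known as activity-induced genes. The family divides into the inducible nuclear enzymes Dusp1, Dusp2, Dusp4 and Dusp5, the cytoplasmic ERK phosphatase Dusp6, the JNK and p38 phosphatases Dusp8, Dusp10 and Dusp16, and the small enzyme Dusp14, which lacks the domain that docks MAP kinases.

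Array-wide values bear on all the results below. The median signal was 94.9 to 106 on the arrays labelled replicate 1 and 135 to 152 on those labelled replicate 2, and deviations from the group means were shared by arrays of the same number, so each call is also given from a fit that has the replicate number as a block where that fit changed it. Hippocampal neuron markers were present on all arrays (Neurod6, a transcription factor of pyramidal neurons, had a signal of 3457 to 6130). Their sum (7 of 8 listed genes matched) was lower after kainate than after saline without overlap in both genotypes. In A-CREB it was 12362 to 12987 after saline, 9130 to 11653 after 14 mg/kg and 9856 to 10672 after 18 mg/kg. Wild-type sums were 12212 to 12275 after saline and 11047 to 11719 after kainate, and these sums were not tested. Markers of striatum (5 of 7 listed genes matched) summed to 10687 on wild-type kainate replicate 2 and to between 1887 and 4495 on the other arrays, and choroid plexus markers (7 of 7) summed to 24814 to 45077. Microglia markers (6 of 6) summed to 10009 to 13822 in A-CREB and 8720 to 10335 in wild-type hippocampi. None of the listed cell type markers passed the limma test (adjusted p under 0.05) in a kainate comparison, with or without the block. In pooled tissue RNA, a change in the number of cells of a type and a change in RNA per cell cannot be told apart. Pools, not single mice, are the replicates, and the errors are those between pools.

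After kainate, 5 of the 9 genes had higher mean signals than after saline in both genotypes: Dusp1, Dusp4, Dusp5, Dusp6 and Dusp14. With the response to 14 mg/kg averaged over A-CREB and wild type (4 kainate against 4 saline arrays), Dusp1, Dusp4 and Dusp5 rose in the limma fit of all probe sets (Benjamini-Hochberg adjusted p under 0.05), which was 3 of 11 tested member probe sets, where 0.411% of all 27022 tested probe sets rose and 0.0037% fell. With the replicate block Dusp6 and Dusp14 rose as well, 5 of 11, where 1.2% of all probe sets rose and 0.318% fell. At an unadjusted p under 0.05 in limma 5 of 11 differed, where 5.7% of all did. No member fell in either fit. The median change of the 11 probe sets was 0.26 on the log2 scale, with a range from -0.13 to 2.00, and the median of all tested probe sets was -0.04. Changes are differences of mean log2(signal + 22) with the standard error (SE) of the limma fit, n = 2 arrays per group, and folds are on that scale.

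**Figure D1:**
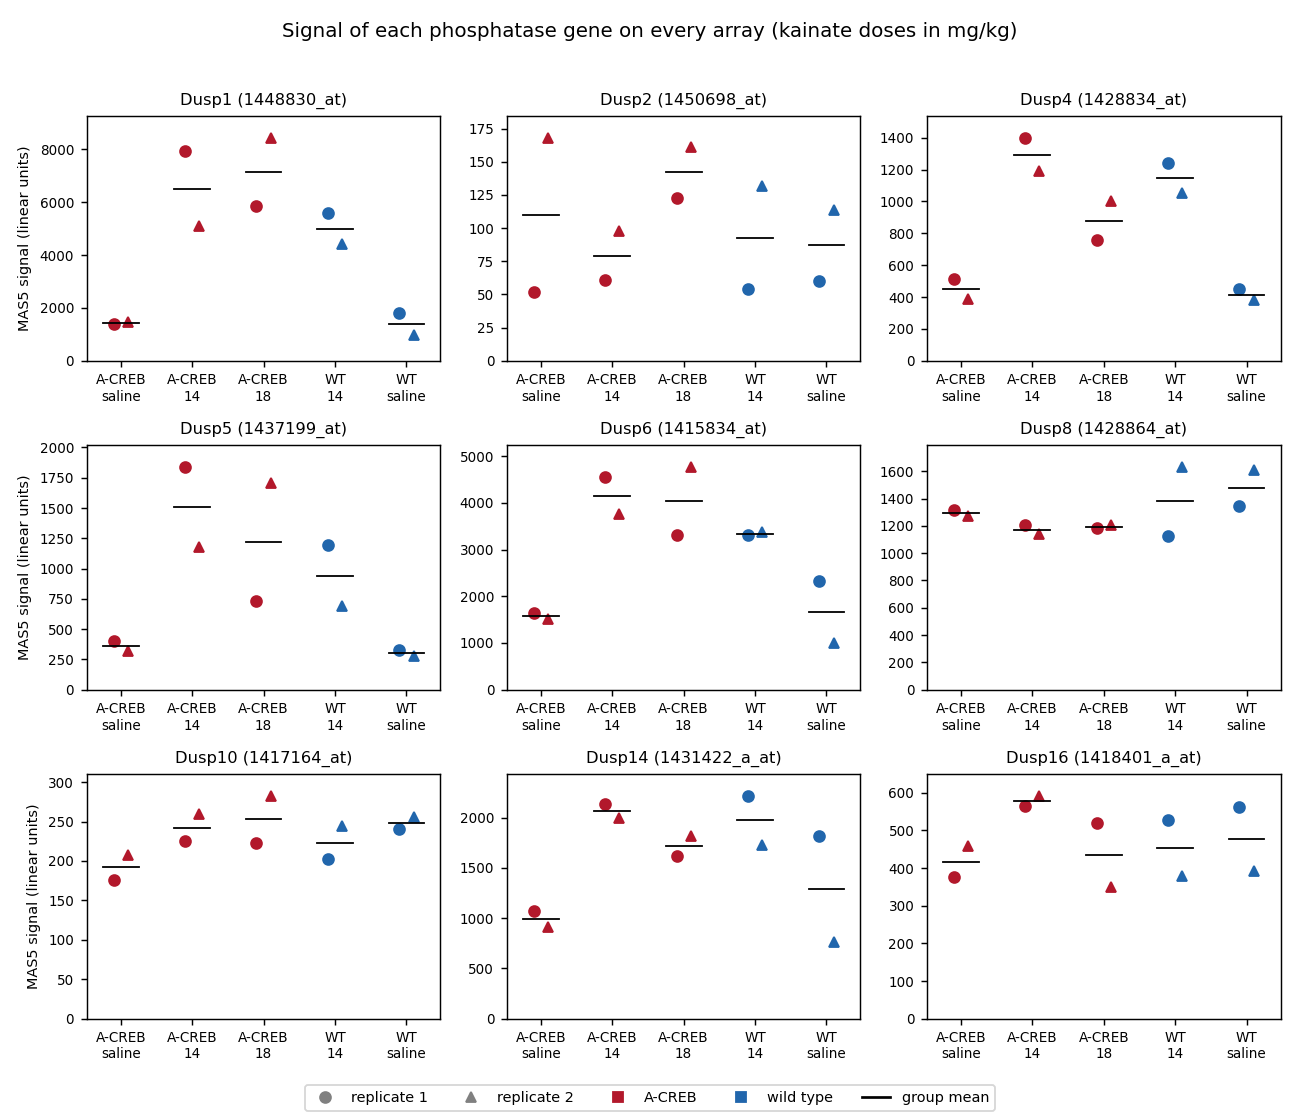
Deposited MAS5 signal (linear axis from 0) of each gene's brightest probe set on every array, by group, with kainate doses in mg/kg, replicate 1 as circles, replicate 2 as triangles, A-CREB in red, wild type in blue and the group mean as a line. Dusp1, Dusp4, Dusp5 and Dusp6 lie above saline on all kainate arrays of both genotypes, while Dusp2, Dusp8, Dusp10 and Dusp16 lie close to their saline levels or overlap them in wild type.

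Dusp1, a nuclear phosphatase of p38, JNK and ERK and a textbook immediate-early gene, changed most of the 9 genes in the averaged response (probe set 1448830_at; gene on chromosome 17 from 26505591 to 26508472, GRCm38.p6). In A-CREB hippocampi its signal was 1379 and 1478 after saline, 7928 and 5107 after 14 mg/kg, and 5868 and 8428 after 18 mg/kg. In wild type it was 5575 and 4404 after kainate, against 1810 and 992 after saline. All kainate arrays lay above all saline arrays, and both saline groups overlapped. The A-CREB kainate groups overlapped each other, as did A-CREB and wild type at 14 mg/kg. Both A-CREB arrays at 18 mg/kg lay above both wild-type arrays at 14 mg/kg. Genotype and dose differ together between these groups, and this difference was not tested. Averaged over genotypes the rise was 4.01-fold (log2 2.00, SE 0.22, adjusted p = 0.00459 by limma). In A-CREB at 14 mg/kg it rose by a log2 of 2.14 (SE 0.32, adjusted p = 0.0406). At 18 mg/kg in A-CREB the change was 2.28 (SE 0.32, adjusted p = 0.0517 without and 0.00228 with the replicate block), and in wild type it was 1.87 (adjusted p = 0.147 without and 0.00903 with the block). The wild-type call with the block was lost without either kainate array or without saline replicate 2 (highest adjusted p = 0.162). Within replicate 1 arrays the change was 2.50 in A-CREB at 14 mg/kg and 1.61 in wild type, and within replicate 2 arrays it was 1.77 and 2.13.

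The sequence upstream of Dusp1 is shown because cAMP response elements (CREs) are the sites that A-CREB is designed to deprive of CREB. The 250 bases before the annotated start site held a full CRE (TGACGTCA) at -143 to -136 and a further short CRE (TGACG, searched on both strands and contained in the full one) at -191 to -187, counting back from the start site. Capitals mark the short and full CREs in the RefSeq sequence of GRCm38.p6, chr17:26508473-26508722, minus strand.
Dusp1: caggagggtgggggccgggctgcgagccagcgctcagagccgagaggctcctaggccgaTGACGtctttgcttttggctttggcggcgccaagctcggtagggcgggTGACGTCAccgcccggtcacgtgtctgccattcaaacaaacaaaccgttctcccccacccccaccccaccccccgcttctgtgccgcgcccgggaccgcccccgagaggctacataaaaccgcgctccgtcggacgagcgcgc
Of 32851 RefSeq promoters of the same length, 1.55% held the full and 17.8% the short CRE. A match describes the letters only.

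Dusp4, a nuclear phosphatase of ERK and JNK, had the smallest SE of the genes that rose (1428834_at; chromosome 8, 34807610 to 34819894). Its signal in A-CREB was 513 and 385 after saline, 1397 and 1189 after 14 mg/kg, and 756 and 1002 after 18 mg/kg, and in wild type it was 1243 and 1056 after kainate, against 449 and 380 after saline. No kainate array overlapped a saline array. The averaged rise at 14 mg/kg was 2.75-fold (log2 1.46, SE 0.16, adjusted p = 0.00422 by limma). In wild type the change was 1.42 both within replicate 1 and within replicate 2 arrays. In A-CREB at 14 mg/kg Dusp4 rose by 1.49 (SE 0.23, adjusted p = 0.048), and the mean change in wild type (1.42) passed with the block only (SE 0.23, adjusted p = 0.102 without and 0.00845 with the block). With the block it was lost without either wild-type kainate array or without wild-type saline replicate 2 (highest adjusted p = 0.153). At 18 mg/kg the change was 0.94 (SE 0.23, adjusted p = 0.572, and 0.0906 with the block). No RefSeq promoter of Dusp4 was used here.

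Dusp5, a nuclear phosphatase selective for ERK, had signals in A-CREB of 403 and 317 after saline, 1838 and 1179 after 14 mg/kg, and 730 and 1707 after 18 mg/kg (1437199_at; chromosome 19, 53529145 to 53541809). Wild-type signals were 1193 and 691 after kainate, against 331 and 280 after saline. The groups given kainate spread widely and overlapped each other, but none of their arrays reached down to a saline array. The averaged rise was 3.35-fold (log2 1.74, SE 0.29, adjusted p = 0.0393 by limma). This call was lost without any 1 of the 8 arrays of the comparison (adjusted p = 0.0531 to 0.196), but kept with the block in each of these (highest 0.042). In A-CREB at 14 mg/kg the change was 1.98 (SE 0.40), called with the replicate block only (adjusted p = 0.197 without and 0.0297 with it), and that call was lost without any 1 of the 4 arrays compared (adjusted p up to 0.391). It was not called at 18 mg/kg (1.59, SE 0.40, adjusted p = 0.668) or in wild type (1.51, SE 0.40, adjusted p = 0.881).

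The upstream sequence of Dusp5 is shown because it was the 1 promoter of the 8 found in the RefSeq table that held CArG boxes, the sites of serum response factor, which works with ERK-activated partners. The boxes stood end to end at -82 to -73 and -72 to -63, and a short CRE at -55 to -51. Among all 32851 promoters 1.47% held a CArG box. Capitals mark both boxes and the short CRE (chr19:53528895-53529144, plus strand, GRCm38.p6).
Dusp5: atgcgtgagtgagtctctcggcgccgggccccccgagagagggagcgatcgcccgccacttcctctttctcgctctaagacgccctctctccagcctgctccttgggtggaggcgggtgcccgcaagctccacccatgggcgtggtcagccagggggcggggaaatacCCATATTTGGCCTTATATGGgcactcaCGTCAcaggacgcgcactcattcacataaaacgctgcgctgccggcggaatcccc
The letters CGTCA are the short CRE on the other strand.

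Dusp6, the cytoplasmic phosphatase of ERK and a standard readout of ERK activity in other tissues, was at 1637 and 1523 in A-CREB after saline, 4545 and 3762 after 14 mg/kg, and 3300 and 4764 after 18 mg/kg (1415834_at; chromosome 10, 99263231 to 99267489). In wild type it was at 3301 and 3375 after kainate, against 2330 and 997 after saline. Kainate and saline arrays did not overlap, although the saline pair of wild type lay far apart. The averaged change was 2.37-fold (log2 1.25, SE 0.24), called with the block only (adjusted p = 0.0895 by limma without and 0.00934 with it). Without wild-type saline replicate 1, the higher of its pair, it passed without the block too (adjusted p = 0.00815), but in the 9 other omissions of 1 array it did not (highest 0.37). With the block the call was lost without either A-CREB 14 mg/kg array or without wild-type kainate replicate 2 (highest adjusted p = 0.0686). Within wild type it was 0.50 between replicate 1 arrays and 1.74 between replicate 2 arrays. The responses in A-CREB were 1.38 at 14 mg/kg (adjusted p = 0.393, and 0.0656 with the block) and 1.32 at 18 mg/kg (adjusted p = 0.724, and 0.121 with the block), and the wild-type response was 1.12 (adjusted p = 1, and 0.244 with the block).

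Dusp14, a small phosphatase without a docking domain, was at 1075 and 909 in A-CREB after saline, 2132 and 1997 after 14 mg/kg, and 1623 and 1818 after 18 mg/kg (1431422_a_at; chromosome 11, 84048033 to 84069256). Wild-type arrays had 2215 and 1728 after kainate, against 1814 and 766 after saline. The A-CREB groups did not overlap with their saline group, but in wild type the saline array of replicate 1 lay above the kainate array of replicate 2. The averaged change was 1.84-fold (log2 0.88, SE 0.24), called with the block only (adjusted p = 0.335 by limma without and 0.0333 with it). With the block the call was kept in 3 of 10 omissions of 1 array, those of either A-CREB 18 mg/kg array and of wild-type saline replicate 1, and lost in the rest (adjusted p up to 0.19). Without the block it passed only without wild-type saline replicate 1 (adjusted p = 0.0205, against up to 0.918). The change was 1.05 in A-CREB at 14 mg/kg (SE 0.34, adjusted p = 0.912), 0.78 at 18 mg/kg (adjusted p = 1) and 0.72 in wild type (adjusted p = 1), and none of these passed with the block either. The wild-type change was 0.28 within replicate 1 arrays and 1.15 within replicate 2 arrays, and it ranged from 0.11 to 1.33 when 1 array was left out, lowest without wild-type saline replicate 2 and highest without replicate 1.

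Within single comparisons, 2 of 11 member probe sets rose in A-CREB at 14 mg/kg (Dusp1 and Dusp4), where 0.181% of all tested probe sets rose, and 3 of 11 with the block, where 0.681% rose. These calls rest on few pools: without the block, Dusp1 was lost on leaving out any of 6 arrays in turn and Dusp4 on leaving out any of 9. At 18 mg/kg the counts were 0 without the block (0.0703% of all probe sets rose) and 1 with it (Dusp1, 0.352%). In wild type they were 0 (0.0629%) and 2 (Dusp1 and Dusp4, 0.315%). At an unadjusted p under 0.05 in limma, 5 of 11 member probe sets differed at either dose in A-CREB and 4 of 11 in wild type, against 3.82%, 2.47% and 2.72% of all probe sets at 14 mg/kg, at 18 mg/kg and in wild type. No member fell, and over all probe sets 0 fell without the block and 0.0518%, 0.0074% and 0.0222% with it. These single comparisons share their saline arrays within A-CREB, so the responses at 14 and 18 mg/kg are not separate evidence.

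**Figure D2:**
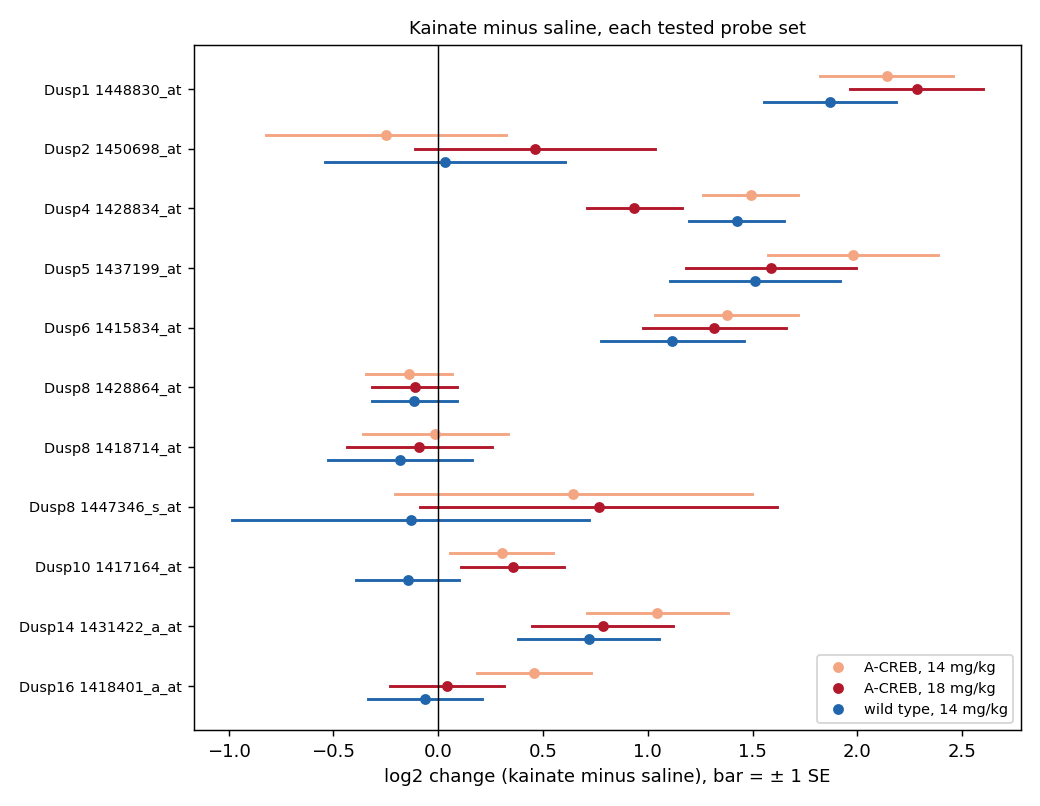
Change in log2(signal + 22) from saline (x axis, kainate minus saline) of the 11 tested probe sets in A-CREB at 14 and 18 mg/kg and in wild type at 14 mg/kg, with bars of 1 SE on each side (n = 2 arrays per group). Dusp1, Dusp4, Dusp5, Dusp6 and Dusp14 stand right of 0 in all 3 comparisons, from 0.72 to 2.28, and the brightest probe set of Dusp8 stands at -0.14 to -0.11.

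The JNK and p38 phosphatases did not pass in any comparison, with or without the block. Dusp8, a brain-enriched member, was at 1318 and 1270 in A-CREB after saline, 1207 and 1138 after 14 mg/kg and 1182 and 1208 after 18 mg/kg by its brightest probe set (1428864_at; chromosome 7, 142079487 to 142095907). In wild type it was at 1128 and 1631 after kainate, against 1344 and 1608 after saline. The A-CREB kainate arrays lay just below their saline arrays, by a log2 of -0.14 at 14 mg/kg and -0.11 at 18 mg/kg (SE 0.20, adjusted p = 1 by limma), and the wild-type arrays overlapped (-0.11). A second probe set (1418714_at) had changes of -0.18 to -0.01 over the same comparisons, and it followed the replicate number, with 584 to 724 on replicate 1 and 916 to 1068 on replicate 2 arrays. The third (1447346_s_at), dim and of the kind that can match more than 1 gene, differed from both, at 0.64 and 0.77 in A-CREB and -0.13 in wild type (SE 0.85). It too followed the replicate number, with 151 to 255 on replicate 1 and 16.5 to 105 on replicate 2 arrays. Its A-CREB changes at 14 and 18 mg/kg were -0.12 and -0.19 within replicate 1. Within replicate 2, whose saline array was the lowest at 16.5, they were 1.41 and 1.73.

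The 250 bases before the start site that the promoter table uses for Dusp8 held the most CREs of any member, a full CRE at -107 to -100 and another at -63 to -56. That start site, like those used for Dusp14 and Dusp16, lies inside the longer gene span of the annotation, so these 3 windows fall within the gene positions given here and not before them. Each is shown in capitals within 30 bases of the minus strand of chromosome 7 (GRCm38.p6), the window at chr7:142095373-142095402 first and then chr7:142095329-142095358, for comparison with Dusp1.
Dusp8 distal CRE: gcccgctccgcTGACGTCAcctgcccccga
Dusp8 proximal CRE: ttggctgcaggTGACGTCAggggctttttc
Of the 8 members found in the RefSeq table, 2 held a full CRE (Dusp1, which rose after kainate, and Dusp8, which did not pass) and 4 a short one (these and Dusp5 and Dusp16). None held an AP-1 site (TGANTCA, both strands), which 6.75% of all promoters held.

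**Figure D3:**
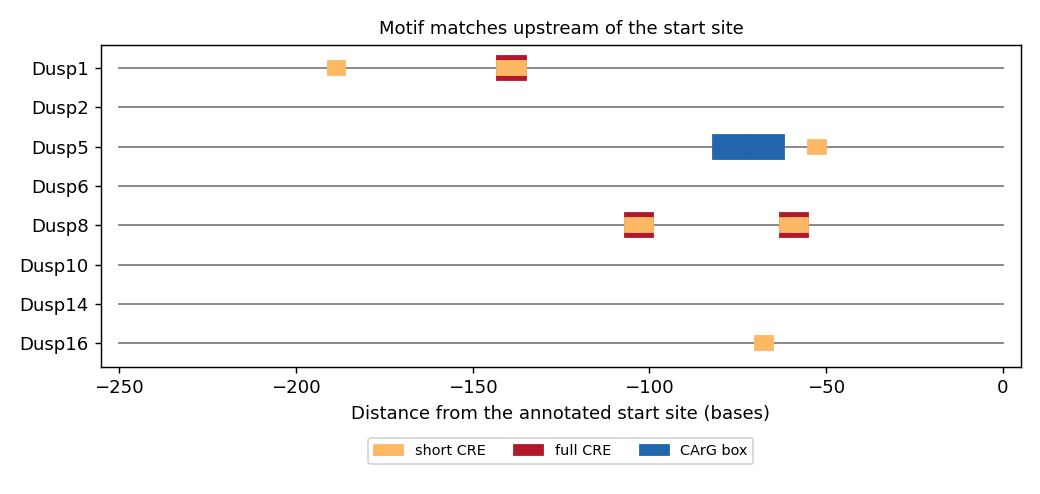
Position of motif matches in the 250 bases before the start site used by the RefSeq promoter table (x axis, bases) for the 8 genes found in it, with full CREs in red, short CREs in orange and CArG boxes in blue. Full CREs stand at Dusp1 and Dusp8, and the CArG boxes at Dusp5, while Dusp2, Dusp6, Dusp10 and Dusp14 show no match. The windows of Dusp8, Dusp14 and Dusp16 lie inside the annotated gene span.

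Dusp10, a phosphatase of JNK and p38, was at 176 and 208 in A-CREB after saline, 225 and 259 after 14 mg/kg, and 223 and 282 after 18 mg/kg (1417164_at; chromosome 1, 184034381 to 184075636). Wild-type arrays had 202 and 244 after kainate, against 240 and 256 after saline. The A-CREB kainate arrays stood above their saline arrays, by 0.30 at 14 mg/kg and 0.36 at 18 mg/kg (SE 0.25, adjusted p = 1 by limma), and the wild-type arrays overlapped (-0.14). Its other probe set (1417163_at) was too dim to test, at 2.98 to 109.

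Dusp16, a JNK phosphatase, was at 376 and 458 in A-CREB after saline, 564 and 591 after 14 mg/kg, and 520 and 351 after 18 mg/kg (1418401_a_at; chromosome 6, 134715468 to 134807063). Wild-type arrays had 527 and 380 after kainate, against 561 and 391 after saline. The A-CREB groups at 14 mg/kg and saline did not overlap (0.46, SE 0.27, adjusted p = 1 by limma). In the other comparisons with saline the arrays overlapped (0.04 in A-CREB at 18 mg/kg and -0.06 in wild type). A further probe set (1440615_at) lay at 1.35 to 28.1 and was not tested. Dusp2, a nuclear phosphatase best known from activated lymphocytes, was dim throughout, with 51.6 to 168 in A-CREB and 53.8 to 132 in wild type (1450698_at; chromosome 2, 127336159 to 127338377). Its groups overlapped in all 3 comparisons with saline, and its changes were -0.25 in A-CREB at 14 mg/kg, 0.46 at 18 mg/kg and 0.03 in wild type (SE 0.57, adjusted p = 1).

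Counted by arrays that do not overlap, 7 of 11 member probe sets lay above saline in A-CREB at 14 mg/kg (12.4% of all tested probe sets did), 6 of 11 at 18 mg/kg (12.4%) and 4 of 11 in wild type (9.23%). Below saline lay 1 of 11 at either dose in A-CREB, the brightest of Dusp8, where 15.3% of all tested probe sets did at 14 mg/kg and 12.5% at 18 mg/kg, and 0 of 11 in wild type (14.5%).

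The design also asks whether A-CREB alters the basal level or the kainate response of these genes, since CREB is a regulator of activity-induced transcription. No member passed in the comparison of the responses to 14 mg/kg (A-CREB minus wild type), of the genotypes after saline or of the genotypes after kainate, with or without the block. Over all probe sets 0% passed without the block, and with it 0.0037% were higher in A-CREB after saline and 0.0037% after kainate. At an unadjusted p under 0.05 in limma the counts were also 0 of 11 in each, against 0.596%, 1.26% and 1.01% of all probe sets. For Dusp1 the response differed by a log2 of 0.27 (95% interval -0.73 to 1.27, and -0.53 to 1.07 with the block). For Dusp4 the difference was 0.07 (-0.65 to 0.79, and -0.54 to 0.67 with the block). For Dusp5 it was 0.47 (-0.82 to 1.75), for Dusp6 0.26 (-0.82 to 1.34) and for Dusp14 0.33 (-0.74 to 1.39), each without the block. Each of these intervals holds 0 and reaches from -0.53 or lower (a smaller response in A-CREB) to 0.67 or higher (a larger one). The arrays therefore do not show that the genotypes respond alike. Over the 11 probe sets the differences ran from -0.28 to 0.78, with a median of 0.27. The median over all tested probe sets was 0.00276, with 5th and 95th percentiles of -0.54 and 0.62. The 11 values include more than 1 probe set of Dusp8 and come from the same arrays, so they are not separate evidence. All genotype differences in response rest on the same saline arrays.

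**Figure D4:**
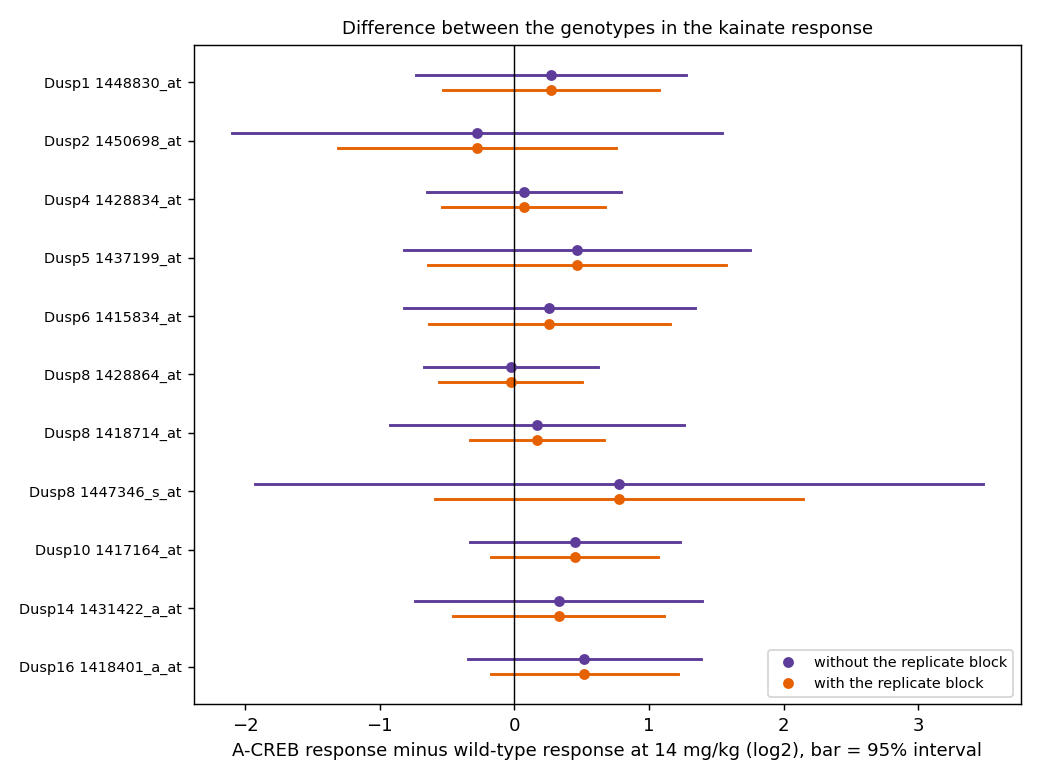
Difference between the genotypes in the response to 14 mg/kg kainate (x axis, A-CREB response minus wild-type response, log2) of each tested probe set, with 95% intervals of the limma fit without (purple) and with (orange) the replicate block. All intervals cross 0, and those of Dusp4 and of the brightest Dusp8 probe set are among the narrowest.

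After saline alone, A-CREB and wild-type arrays of Dusp1 overlapped (group means 1429 ± 69.9 in A-CREB and 1401 ± 579 in wild type, SD, n = 2 each), as did those of Dusp4 (449 ± 90.3 in A-CREB and 415 ± 49.1 in wild type). The basal difference was 0.09 for Dusp1, 0.10 for Dusp4, 0.22 for Dusp5, 0.05 for Dusp6 and -0.25 for Dusp14. The brightest probe set of Dusp8 (-0.18) and Dusp10 (-0.34) lay lower in A-CREB without overlap, which 11.1% of all probe sets did (9.96% lay higher, but no member), and both had an adjusted p of 1 by limma. After 14 mg/kg, A-CREB arrays of Dusp6 and Dusp16 lay above those of wild type without overlap (0.31 and 0.35, adjusted p = 1), as 10.9% of all probe sets did, and no member lay below without overlap, as 9.91% did. The ordering of group means was A-CREB 18 mg/kg, A-CREB 14 mg/kg, wild type 14 mg/kg and then both saline groups for Dusp1, and A-CREB 14 mg/kg was highest for Dusp4, Dusp5, Dusp6 and Dusp14. Microglia markers, which were higher in A-CREB than in wild type after kainate (11314 to 13822 against 8720 to 9159), moved with this comparison, and their part in it was not tested.

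Between the doses in A-CREB (18 minus 14 mg/kg) no member passed by limma with or without the block, and 1 of 11 did at an unadjusted p under 0.05 (0.496% of all probe sets). This was Dusp4, which was lower at 18 mg/kg (756 and 1002) than at 14 mg/kg (1397 and 1189) without overlap, by a log2 of -0.56 (SE 0.23, adjusted p = 1). The difference was -0.87 between replicate 1 arrays and -0.24 between replicate 2 arrays. Dusp14 (-0.26) and Dusp16 (-0.42) also lay lower at 18 mg/kg without overlap, as 7.23% of all probe sets did, and Dusp2 lay higher (0.71), as 10.6% did. For Dusp1 (0.14), Dusp5 (-0.39) and Dusp6 (-0.06) the doses overlapped.

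The rest of the MAP kinase pathway was described by lists of genes, each by its brightest tested probe set. Among MAP kinases and the kinases that activate them 0 of 13 tested genes passed in any kainate comparison, with or without the block, and their median was -0.06 in the response averaged over genotypes, where the median of all probe sets was -0.04. The same was true of Ras, Raf and their exchange factors (0 of 10, median -0.14), of kinases activated by MAP kinases (0 of 7, median 0.11), of other dual-specificity phosphatases (0 of 17, median -0.11), of tyrosine and serine-threonine phosphatases that act on MAP kinases (0 of 7, median 0.03) and of MAP kinase scaffolds (0 of 8, median -0.12). The smallest p of a list belonged to Ssh1, a cofilin phosphatase, among other dual-specificity phosphatases (-0.46, adjusted p = 0.699), to Mknk2, which phosphorylates a translation initiation factor (0.53, adjusted p = 0.71), to Sos2, a Ras exchange factor (-0.49, adjusted p = 0.839), and to the p38 kinase gene Mapk14 (-0.29, adjusted p = 0.962). Ptprr, a tyrosine phosphatase of ERK, was at -0.43 (adjusted p = 0.925).

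The remaining lists held genes that rose. Of 10 receptor-level and Ras-level feedback inhibitors, Errfi1, which inhibits the EGF receptor, rose in all 4 kainate comparisons (averaged log2 2.30, SE 0.17, adjusted p = 0.000539 by limma). Spry2, a Sprouty inhibitor of Ras signalling, was at 0.89 (adjusted p = 0.295 without and 0.000872 with the block), and the list's median was 0.04. Of 17 tested genes listed as induced through ERK, Elk and serum response factor, 7 rose in the averaged response and 0 fell. With the block 10 rose, and the list's median was 1.27. Over all tested probe sets 0.411% rose without and 1.2% with the block. The list includes Srf and Elk genes themselves, and the route of induction was not tested. The counts were 4 in A-CREB at 14 mg/kg, 3 at 18 mg/kg and 2 in wild type, and 9, 8 and 6 with the block. In the same order 0.181%, 0.0703% and 0.0629% of all probe sets rose, and 0.681%, 0.352% and 0.315% with the block. Among the listed genes that rose in the averaged response were Fosb, up by 4.23 (adjusted p = 0.000455), Fos, up by 3.39 (adjusted p = 3.36e-05), Egr2, up by 3.09 (adjusted p = 0.0027), and Fosl2, up by 1.87 (adjusted p = 0.00422). Fos, Fosb and Fosl2 encode subunits of the AP-1 factor and Egr2 a zinc finger factor. The members rose by less than Fos and Fosb in the averaged response, with 2.00 for Dusp1 as the highest, and these differences between genes were not tested.

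The genes whose profile over the 10 arrays lay closest to a member's were found by the root-mean-square difference of log2 values, each taken relative to wild-type saline. For Dusp1 they were Klf4, a zinc finger factor (0.27), Errfi1 (0.27) and Rgs2, which dampens G-protein signals (0.30), where the profile of Dusp1 itself had a root mean square of 1.70. For Dusp4 (1.07) they were Pcsk1, a prohormone convertase (0.19), Coq10b, a gene of coenzyme Q metabolism (0.21), and Rasd1, a Ras-like gene (0.27). For Dusp5 (1.49) they were Klf4 (0.27) and the orphan nuclear receptors Nr4a3 (0.32) and Nr4a1 (0.33). For Dusp6 (1.06) they were Coq10b (0.22), Edn1, the endothelin precursor (0.27), and Plk2, a polo-like kinase (0.29). For Dusp14 (0.62) they were Nrn1, a neurite-promoting protein (0.16), Slc25a25, a mitochondrial carrier (0.21), and Ivns1abp (0.22). Among the members, the closest pair of genes higher after kainate was Dusp4 and Dusp6 (0.32), and Dusp1 and Dusp5 differed by 0.39, while Dusp1 and Dusp8 lay farthest apart (1.91).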

How the data were processed

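The authors deposited 1 linear intensity (MAS5 signal, GCOS software, per the submitters' processing notes) for each probe set. Software versions are not given here. The 2% trimmed mean was 500.002 or 500.003 on every array, so no further scaling was applied. Of 45101 probe sets, 64 controls were left out. Signals were taken as log2(signal + 22), 22 being the 20th percentile of all signals, and the 27022 probe sets in the upper 60% by mean signal (above 73.2) were tested. The pseudocount lowers the fold of dim genes. The 10 arrays limit the precision.

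A model of all arrays was fitted in limma 3.58.1 under R 4.3.3 with group means and eBayes with an intensity trend. It had 5 residual degrees of freedom and 8 two-sided comparisons. P-values were adjusted by Benjamini-Hochberg over all tested probe sets, with a threshold of 0.05. The procedure was first run on simulated data, where the check was only that planted mean changes were recovered. The rate of false calls was not part of that check. The labels do not say what the replicate numbers mark. Deviations of same-numbered arrays from their group means correlated at 0.520 to 0.631 over the 10 pairs of groups. The main fit, which gave the SEs and the calls unless the block is named, did not model this pairing. An alternative fit with the numbers as a block (4 residual degrees of freedom) is given where it changed a call.

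The members, pathway lists and rules were chosen with earlier results of these data known. Text names all member probe sets, up to 4 genes per pathway list by smallest p, and the 3 genes closest in profile to each member called in either fit. Promoters are the 250 bases before the start site in RefSeq's GRCm38.p6 table, which held 8 of the 9 members. Gene positions are those of the same assembly.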

Additional observations from a re-analysis of the deposited data

How the results depend on the processing

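The responses of Dusp1, Dusp4, Dusp5, Dusp6 and Dusp14, a group chosen after their values were seen, kept their direction in all 636 values from the 4 kainate comparisons under every alternative run, from 0.11 to 2.76. Of 2760 values of member probe sets under the alternatives 147 changed sign, and 0 of these passed the threshold in either setting. The alternatives were other pseudocounts, filters, normalizations and variance models, other choices of probe sets or samples, the block, and the omission of each array in turn, where a lone array is assumed to vary like the other groups. Leaving out each array with the block was added after the data were seen.

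The number of member probe sets called depended on the setting. In the averaged response it was 3, but 2 with no intensity trend and 5 with the replicate block. In wild type it was 0, but 1 with 1 probe set per gene (Dusp4, adjusted p = 0.0452) and 2 with the replicate block. In A-CREB at 14 mg/kg it was 2, but 0 with no intensity trend and 1 with only the groups of the comparison. At 18 mg/kg it was 0, but 1 (Dusp1) with 4 times the pseudocount, the upper 40% of probe sets, quantile or cyclic loess normalization, 1 probe set per gene, no _s_at, _x_at or _a_at probe sets, or the replicate block. Without 1 array the count ranged from 2 to 4 in the averaged response, 0 to 0 in wild type, 0 to 2 in A-CREB at 14 mg/kg and 0 to 1 at 18 mg/kg. With the block and without 1 array it ranged from 3 to 5, 0 to 4, 0 to 5 and 1 to 4 in the same order.

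In the averaged response Dusp1 and Dusp4 passed whichever array was left out (highest adjusted p 0.0333 and 0.0349 by limma). Dusp5 missed the threshold without an intensity trend (adjusted p = 0.134) and without any 1 of the 8 arrays of that comparison (0.0531 to 0.196), but with the block it passed whichever array was left out (highest 0.042). With the block, Dusp6 was lost without A-CREB 14 mg/kg replicate 1 or 2 or wild-type kainate replicate 2, and Dusp14 passed only without an A-CREB 18 mg/kg array or wild-type saline replicate 1. In wild type Dusp1 and Dusp4 passed with the block in 7 of 10 fits, and in A-CREB at 14 mg/kg in 9 and 8 of 10. Without the block, Dusp1 in A-CREB at 14 mg/kg passed only without an A-CREB 18 mg/kg array or a wild-type saline array, and Dusp4 only without A-CREB 18 mg/kg replicate 2. Without wild-type kainate replicate 2, which had the highest striatal sum, the wild-type change was 2.04 for Dusp1 and 1.54 for Dusp4.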

Other observations

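The pools of A-CREB mice given 18 mg/kg differed from each other in the same way across the responsive genes. Replicate 1 was below replicate 2 for all 5 of Dusp1, Dusp4, Dusp5, Dusp6 and Dusp14, with ratios of replicate 1 to replicate 2 from 0.428 (Dusp5) to 0.892 (Dusp14). It was also below for the 6 induced genes compared with them, from 0.296 for Egr2 to 0.923 for Fos. Of these 6 genes, Spry2 had ratios below 1 in all 5 groups (0.64 to 0.762 in the other 4). The ratios of the 6 genes elsewhere lay on both sides of 1, with 4 of 6 above 1 in A-CREB mice given 14 mg/kg, 3 of 6 in A-CREB mice given saline, 4 of 6 in wild-type mice given kainate and 3 of 6 in wild-type mice given saline. In A-CREB mice given 14 mg/kg the ratios of the 5 phosphatases ran from 1.07 to 1.56, in A-CREB mice given saline from 0.933 to 1.33, and in wild-type mice given kainate from 0.978 to 1.73. In wild-type mice given saline, Dusp6 and Dusp14 were 2.34 and 2.37 times higher in replicate 1 than in replicate 2 and Dusp1 was 1.82 times higher, while Dusp4 and Dusp5 were each 1.18 times higher. The genes were chosen after their values were seen, and no test was made of these ratios.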
